A study of Mus musculus with 12 samples.

Results

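The 10 genes described here are those of the transforming growth factor-beta (TGF-beta) ligands (Tgfb1, Tgfb2, Tgfb3), their receptors (Tgfbr1, Tgfbr2, Tgfbr3), 3 latent TGF-beta binding proteins (Ltbp1, Ltbp2, Ltbp3) and the TGF-beta induced matrix protein Tgfbi. They were chosen by symbol from the 55414 genes of the deposited table, and all 10 were among the 15912 genes tested between fistula and sham. Expression was measured by poly(A) RNA sequencing of the inferior vena cava (IVC) of 12 wild-type C57BL/6J mice, 10 weeks old, collected on day 7 after surgery. In the AVF group, 6 mice had an infrarenal aortocaval fistula made by a needle puncture from the aorta into the IVC, so that the vein carried arterial flow. In the sham group, 6 mice had the same operation without the puncture. Each group held 3 female and 3 male mice, with 1 library per mouse. The study divided the AVF group, by the expression of these same samples, into 4 nAVF samples (#04, #06, #07 and #11) and 2 OUT samples (#05, male, and #09, female).

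TGF-beta ligands are made as precursors whose propeptide stays wrapped around the mature dimer and keeps it inactive. Latent binding proteins tether this complex to fibrillin microfibrils in the matrix, from which integrins or proteases release it. The free ligand binds the type II receptor (Tgfbr2), which recruits and phosphorylates the type I receptor (Tgfbr1), and Smad proteins then carry the signal to the nucleus. The betaglycan coreceptor (Tgfbr3) presents ligand, Tgfb2 above all, to the signalling receptors. In vessel walls the pathway is known for its part in matrix deposition and in smooth muscle and endothelial phenotype.

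The libraries held 15177881 to 22717423 counts. In #07, a female AVF sample, 46% of counts were ribosomal RNA, and 2.39% to 12.6% in the other libraries. Levels are normalized CPM, meaning counts divided by the TMM-adjusted size of the library, and 3 counts, the least taken as detected, amounted to 0.127 to 0.324 CPM. Every member was above that in every library. Marker genes of smooth muscle and endothelium, the defining cells of a vein, were present in every library, with summed levels of 2540 to 5230 and 1650 to 2830 CPM over 8 genes each, and no marker of either list passed the test between AVF and sham. The samples were bulk tissue, so fewer cells of a type and less RNA per cell cannot be told apart. Hepatocyte markers summed to 2710 CPM in #05 and 7440 in #09, and to no more than 4.3 in the other 10 libraries. The members were therefore also tested without these OUT samples, and counts of the further gene lists are also given for nAVF.

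In the AVF group, Tgfb2, Tgfb3, Tgfbr1, Ltbp2 and Ltbp3 rose and Tgfbi fell. Tgfb1, Tgfbr2, Tgfbr3 and Ltbp1 did not pass the test. A gene passed with an adjusted p value under 0.05 in the quasi-likelihood test of edgeR, adjusted by Benjamini-Hochberg over all 15912 genes. Of the 10 members, 5 were called higher and 1 lower, against a background of 8.63% of tested genes called higher and 5.13% called lower, 13.8% in all. Tgfb2, Tgfb3 and Ltbp2 also exceeded the 2-fold limit of the study, which 3.37% of tested genes did in this direction with an adjusted p value under 0.05. The median log2 fold change was 0.44 over the members and -0.01 over all tested genes. In 5 members every AVF sample lay above every sham sample, as in 4.55% of tested genes. Without the OUT samples and with the filter on CPM kept (15531 genes), the same 6 members passed, Tgfbi with an adjusted p value of 0.042 in the quasi-likelihood test of edgeR. Fibroblast markers moved in the same direction, with 5 of 8 higher in the AVF group and summed levels of 6640 to 13900 CPM in sham and 15100 to 26600 in AVF. The fibroblast list had a median log2 fold change of 0.61 and a lowest of -0.28. Its genes Col1a1 and Col1a2, both part of the summed level, had log2 fold changes of 1.34 and 1.19. They were also in the list of TGF-beta targets given below. Macrophage markers also moved in that direction, with 7 of 8 higher and sums of 584 to 971 CPM in sham and 1120 to 1840 in AVF. Brown fat markers went the other way, with 4 of 8 lower and sums of 202 to 1980 CPM in sham and 86 to 385 in AVF. No platelet, neuron or mesothelium marker passed. The log2 fold change was above 0 in 0 of 8 platelet and 0 of 8 neuron markers, with medians of -1.05 and -1.09. It was above 0 in 7 of 8 mesothelium markers, with a median of 1.67. No marker of these lists was at 0 in every sample of a group, and the part of these cells in the members' changes was not tested.

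**Figure D1:**
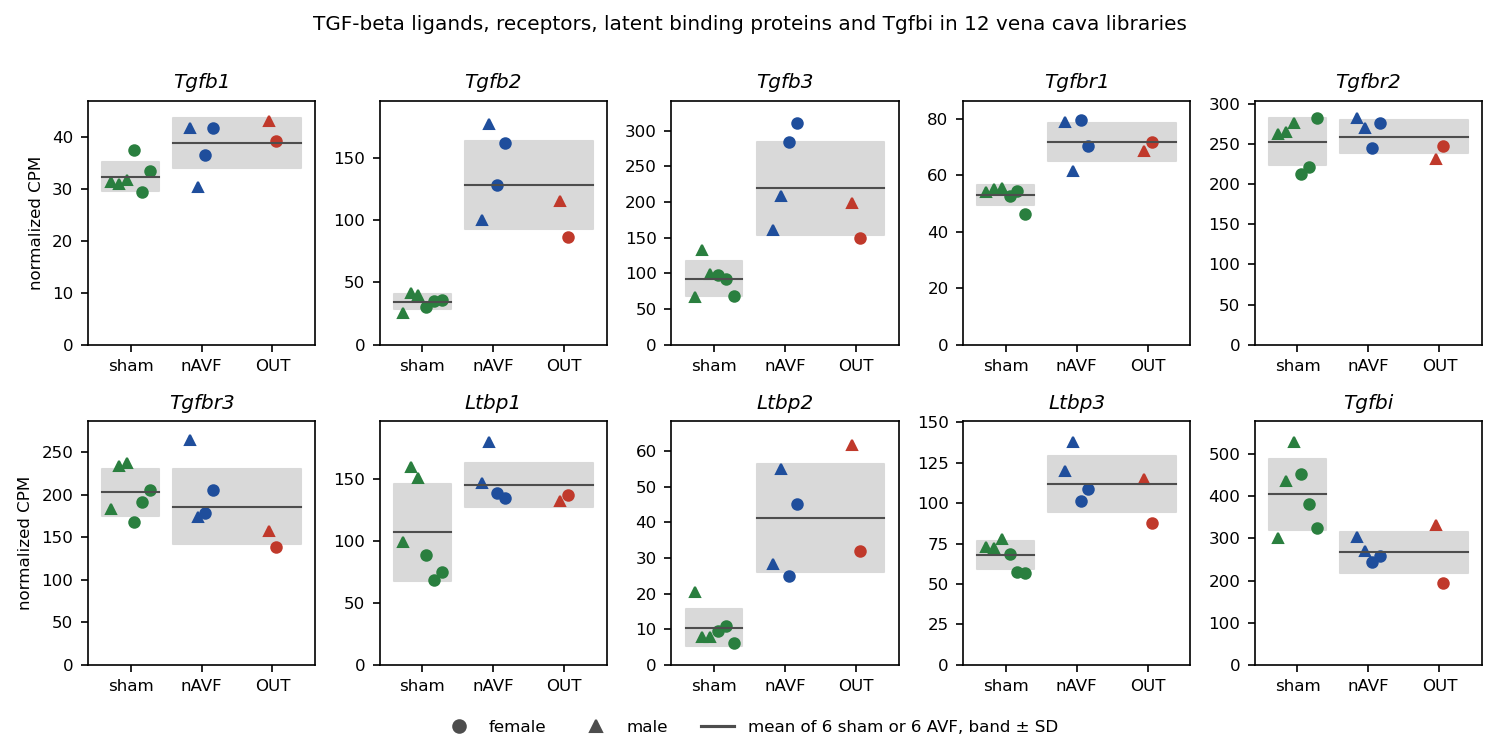
Normalized CPM (y axis) of the 10 members in sham, nAVF and OUT samples (x axis), with each point 1 mouse, circles for females and triangles for males, and a line and band for the mean and SD of the 6 sham or 6 AVF samples. Tgfb2 lay between 86.5 and 177 in AVF and between 25.4 and 41.5 in sham, while Tgfbr2 covered 231 to 283 and 213 to 282.

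The sequences before the start sites are shown for 4 members to set genes that rose beside a ligand that did not pass. Each is the 250 bases before the start of the canonical transcript, which for these genes lies before every annotated transcript of the gene, on GRCm39 with GENCODE M39, written from 5′ to 3′ on the strand of the gene. Capitals mark the Smad core motif CAGAC or its reverse complement GTCTG.
Tgfb2 (chr1:186438295-186438544, minus strand): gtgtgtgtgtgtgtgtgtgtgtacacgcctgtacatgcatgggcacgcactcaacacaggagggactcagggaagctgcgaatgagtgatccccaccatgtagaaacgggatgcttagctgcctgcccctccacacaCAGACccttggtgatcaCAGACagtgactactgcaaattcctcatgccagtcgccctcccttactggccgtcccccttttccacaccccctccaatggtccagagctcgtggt
Ltbp2 (chr12:84923307-84923556, minus strand): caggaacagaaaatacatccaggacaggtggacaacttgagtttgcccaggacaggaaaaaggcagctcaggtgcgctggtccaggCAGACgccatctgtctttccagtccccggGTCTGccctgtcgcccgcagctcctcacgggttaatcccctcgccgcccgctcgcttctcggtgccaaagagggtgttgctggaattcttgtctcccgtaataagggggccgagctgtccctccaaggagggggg
Tgfbr1 (chr4:47352884-47353133, plus strand): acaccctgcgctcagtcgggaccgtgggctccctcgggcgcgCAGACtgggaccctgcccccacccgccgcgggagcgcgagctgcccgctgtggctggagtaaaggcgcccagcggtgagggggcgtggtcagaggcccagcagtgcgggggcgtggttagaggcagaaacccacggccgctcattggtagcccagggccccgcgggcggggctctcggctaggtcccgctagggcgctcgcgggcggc
Tgfb1 (chr7:25386140-25386389, plus strand): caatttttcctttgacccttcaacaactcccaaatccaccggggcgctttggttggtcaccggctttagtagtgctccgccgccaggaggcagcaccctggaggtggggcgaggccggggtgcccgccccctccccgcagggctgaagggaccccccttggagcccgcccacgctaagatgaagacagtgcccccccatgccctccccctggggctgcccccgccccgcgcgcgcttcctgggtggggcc
The Tgfb2 and Ltbp2 windows each held 2 such motifs and the Tgfbr1 window 1, while the Tgfb1 window held 0. The other members did not follow this division, since Tgfb3, which rose, held 0, Ltbp3, which rose, held 2, Tgfbr2 and Ltbp1, which did not pass, held 2 each, Tgfbr3, which did not pass, held 0, and Tgfbi, which fell, held 3. Over the same window of all 10 members, 7 held at least 1, against 41.4% of 21757 protein-coding genes, and so short a motif occurs often by composition alone. For Tgfb3, Ltbp1 and Ltbp3 all 250 bases of the window lay inside the annotated bounds of the gene. For Tgfbr3 128 bases did, and for Tgfbi 32. The Sp1 motif GGGCGG was in 4 of 10 members and in 36.3% of all windows, the TATA box TATAAA in 1 member (Tgfb3) and in 11.9%, and the AP-1 motif TGANTCA in 0 members and in 6.18%. Both strands were searched, and no matches overlapped in these windows. G and C made up 69.6% of the Tgfb1 window and 56.8% of the Tgfb2 window, with a median of 53.2% over all windows.

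Among the ligands, Tgfb2 and Tgfb3 rose and Tgfb1 did not pass, and Tgfb2 had the largest log2 fold change of the 3. Tgfb2 encodes TGF-beta2, which needs betaglycan for full receptor binding. On chromosome 1 from 186354985 to 186438294 (GRCm39), Tgfb2 (ENSMUSG00000039239) was at a lowest level of 25.4, a median of 35.5 and a highest of 41.5 normalized CPM in sham. In AVF its lowest level was 86.5, its median 122 and its highest 177 CPM. The lowest AVF sample was the OUT sample #09, and it still lay above every sham sample. The log2 fold change was 1.89 (standard error, SE, 0.18, adjusted p = 0.000135 in the quasi-likelihood test of edgeR), with means of 34.6 ± 5.95 (SD, n = 6) in sham and 128 ± 35.4 (SD, n = 6) in AVF. Tgfb2 stood at rank 17 of the 15912 tested genes by p value.

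Tgfb3 (ENSMUSG00000021253, chromosome 12 from 86102756 to 86126301) encodes TGF-beta3, a ligand active in palate and lung development. Sham samples ran from 67.4 through a median of 94.4 to 132 CPM. AVF samples ran from 150 through a median of 203 to 310 CPM. The groups did not overlap, and the pair of highest samples, #07 and #11, were both female nAVF samples at 284 and 310 CPM. Its log2 fold change was 1.24 (SE 0.21, adjusted p = 0.0032 in the quasi-likelihood test of edgeR).

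Tgfb1 (ENSMUSG00000002603, chromosome 7 from 25386390 to 25404506) encodes TGF-beta1, the form made by platelets, leukocytes and most vascular cells. It was at 29.5 to 37.5 CPM in sham, with a median of 31.6, and at 30.3 to 43.1 in AVF, with a median of 40.6. In 4 of 6 AVF samples it lay above the highest sham sample, while #06 was near the bottom of the sham range. The log2 fold change of 0.26 did not pass the test (95% interval 0.05 to 0.46, adjusted p = 0.0856 in the quasi-likelihood test of edgeR). Without #06 it was 0.32 and passed (adjusted p = 0.0329, same test), and this was the 1 alternative in which Tgfb1 passed. Its adjusted p value was 0.0509 in DESeq2 and 0.355 in the exact test of edgeR.

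Levels between genes were compared per kilobase of exon, as normalized CPM per kb. The length was that of all annotated exons of a gene together, which can exceed that of the transcripts expressed. Orders and shares between genes depend on this length, while changes of a gene between groups do not. Summed over the ligands, the level was 29.7 ± 5.23 (SD, n = 6) CPM per kb in sham and 70 ± 16.5 (SD, n = 6) in AVF, and the ranges of 23.2 to 38.1 and 50.4 to 93.6 did not overlap. By this measure, Tgfb3 was the most abundant ligand transcript in every library. Its share of the sum was 59.2% ± 5.13 (SD, n = 6) in sham and 59.3% ± 4.72 (SD, n = 6) in AVF. The Tgfb2 share was 15.7% to 22.6% in sham and 25% to 38.1% in AVF, and that of Tgfb1 was 16% to 26.7% and 8.01% to 15.4%. The sum thus grew with Tgfb3 holding its share, Tgfb2 taking a larger share and Tgfb1 a smaller one. These shares are a description and were not tested.

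**Figure D2:**
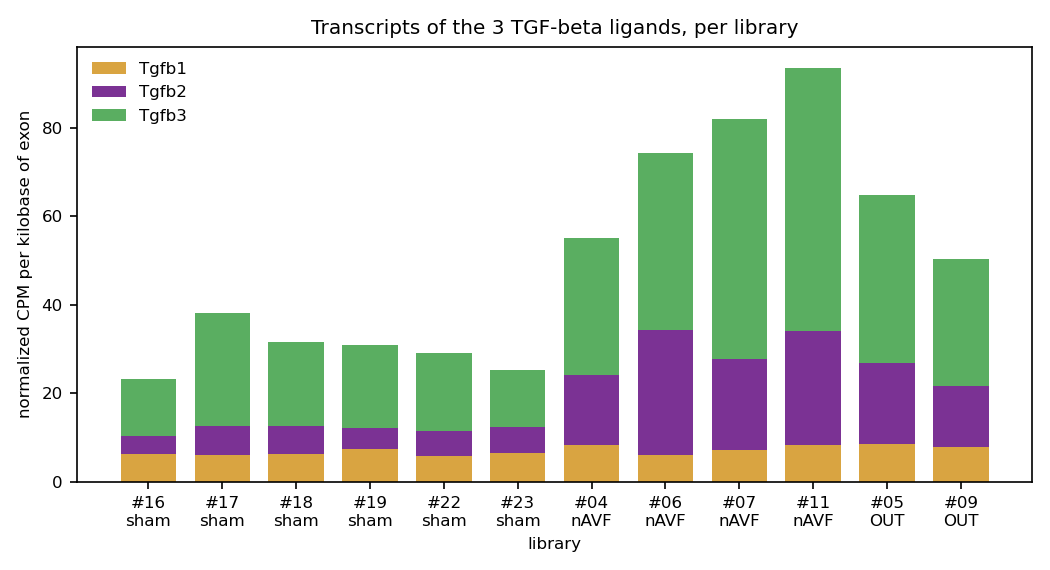
Stacked bars of normalized CPM per kilobase of exon (y axis) for the 3 ligands in each library (x axis, by sample number and subgroup). The sums reach 23.2 to 38.1 in the sham libraries and 50.4 to 93.6 in the AVF libraries, with the Tgfb1 segment of similar height throughout.

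Of the receptors, Tgfbr1 rose, and Tgfbr2 and Tgfbr3 did not pass the test. Tgfbr1 (ENSMUSG00000007613, chromosome 4 from 47353134 to 47414931), the type I receptor kinase that phosphorylates Smad2 and Smad3, was at 46.1 to 55.6 CPM in sham, with a median of 54.1. In AVF it was at 61.4 to 79.7 CPM, with a median of 71.1. The groups did not overlap, though the gap between them was small beside that of Tgfb2, and the log2 fold change was 0.44 (SE 0.08, adjusted p = 0.00392 in the quasi-likelihood test of edgeR).

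Tgfbr2 (ENSMUSG00000032440, chromosome 9 from 115913361 to 116004800), the type II receptor that binds ligand, had almost the same level in both groups. Sham samples had 213 to 282 CPM and AVF samples 231 to 283, with medians of 263 and 259. Its log2 fold change was 0.03, and the 95% interval of -0.16 to 0.22 bounds the change on either side (adjusted p = 0.844 in the quasi-likelihood test of edgeR). Tgfbr3 (ENSMUSG00000029287, chromosome 5 from 107249402 to 107437623) was at 168 to 237 CPM in sham and 139 to 264 in AVF. Both extremes of Tgfbr3 were AVF samples, #09 at the bottom and #04 at the top. Its log2 fold change was -0.12 (95% interval -0.44 to 0.2, adjusted p = 0.612, same test), and 0.03 without the OUT samples, so its sign turned.

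Within the receptor transcripts, per kilobase of exon, Tgfbr1 made up 10.1% to 14% in sham and 14.2% to 18.3% in AVF. Tgfbr2 held 43.4% ± 2.33 (SD, n = 6) in sham and 43.9% ± 3.15 (SD, n = 6) in AVF. The summed receptor level was 66.4 ± 6.87 (SD, n = 6) CPM per kb in sham and 67.5 ± 8.86 (SD, n = 6) in AVF, in contrast to the ligand sum, and this difference between the families was not tested.

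The latent binding proteins did not move as 1 group. Ltbp2 (ENSMUSG00000002020, chromosome 12 from 84829986 to 84923306) and Tgfb2 had the largest log2 fold changes of the 10 members, 1.98 and 1.89, and their order turned without the OUT samples, at 1.87 and 2.04. Ltbp2 encodes a microfibril protein which, unlike its relatives, does not bind latent TGF-beta covalently. Sham samples had a lowest level of 6.06, a median of 8.75 and a highest of 20.5 CPM, and AVF samples a lowest of 24.9, a median of 38.7 and a highest of 61.7. The sham sample #16 lay far above the other sham samples, which had at most 11 CPM, and remained below every AVF sample. The log2 fold change was 1.98 (SE 0.31, adjusted p = 0.00217 in the quasi-likelihood test of edgeR).

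Ltbp3 (ENSMUSG00000024940, chromosome 19 from 5790932 to 5808669), which binds latent TGF-beta and is needed for its secretion in bone and aorta, was at 56.9 to 78.1 CPM in sham and 87.4 to 138 in AVF. Its medians were 70.3 and 112 CPM, with no overlap. The log2 fold change was 0.72 (SE 0.12, adjusted p = 0.00218 in the quasi-likelihood test of edgeR). Ltbp1 (ENSMUSG00000001870, chromosome 17 from 75312519 to 75699507), the main carrier of latent TGF-beta1 in matrix, had 68.8 to 160 CPM in sham and 132 to 180 in AVF. The sham samples were spread, with males #17 and #18 at 160 and 151 CPM inside the AVF range. The male #16, at 99.1 CPM, and all females lay below that range. The Ltbp1 log2 fold change of 0.44 equalled that of Tgfbr1 but had an SE of 0.20, and it did not pass (adjusted p = 0.158, same test).

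Ltbp4, the fourth gene of this family and the most abundant of it per kilobase, was at 198 to 321 CPM in sham and 205 to 357 in AVF, and its log2 fold change of 0.16 did not pass (adjusted p = 0.509, same test). Of the transcripts of the 4 genes, per kilobase of exon, Ltbp4 made up 57.4% to 70.4% in sham and 51.1% to 57.8% in AVF. Ltbp2 made up 1.44% to 5.48% and 4.82% to 9.89%. Even after its rise, Ltbp2 was thus the least abundant of the 4 in every library.

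Tgfbi (ENSMUSG00000035493, chromosome 13 from 56757336 to 56787375) encodes a secreted matrix protein that binds collagen and integrins, and it takes its name from its induction by TGF-beta in cultured cells. It was the 1 member that fell. Sham samples had a lowest level of 301, a median of 408 and a highest of 528 CPM, against 193, 263 and 332 in AVF. The groups overlapped, since sham samples #16 and #23 at 301 and 325 CPM lay within the AVF range, while 4 AVF samples lay below every sham sample. The log2 fold change was -0.60 (SE 0.16, adjusted p = 0.0261 in the quasi-likelihood test of edgeR). Its direction was thus opposite to that of Tgfb2 and Tgfb3 in the same libraries.

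Ordered per kilobase of exon, Tgfbi was the most abundant member in sham, at 107 ± 22.5 (SD, n = 6) CPM per kb, above and apart from Tgfbr3 at 29.6 ± 4.08 (SD, n = 6). Tgfbr2, Tgfb3, Ltbp1, Tgfbr1, Ltbp3, Tgfb1 and Tgfb2 followed in that order, and each overlapped in range with the next. Ltbp2, at 1.28 ± 0.636 (SD, n = 6) CPM per kb, stood last and apart from Tgfb2 at 5.53 ± 0.951 (SD, n = 6). In AVF, Tgfb3 was second at 41.9 ± 12.5 (SD, n = 6) CPM per kb, and its range overlapped that of Tgfbi at 70.6 ± 12.8 (SD, n = 6). Tgfb2 moved from rank 9 to rank 5, at 20.5 ± 5.66 (SD, n = 6) CPM per kb, and Tgfb1 from rank 8 to rank 9, at 7.64 ± 0.947 (SD, n = 6). The only neighbours in the AVF order whose ranges did not overlap were Tgfbr1, at 9.27 to 12 CPM per kb, and Tgfb1, at 5.95 to 8.49. Both orders depend on the exon length taken for each gene.

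To ask whether the changes were those of the nAVF samples, 4 nAVF were compared with the 6 sham samples. All 10 of these samples were also in the comparison of AVF with sham, so its values stand beside that one and are not a repeat of it. They are the samples that remained there without the OUT samples, and the fits differed in the filter on low counts, which kept 22059 genes here. The same 5 genes rose and 0 members fell, against a background of 3.23% of 22059 tested genes called higher and 1.13% called lower, 4.37% in all. The median log2 fold change was 0.46 over the members and -0.04 over all tested genes.

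In the nAVF samples #04, #06, #07 and #11, Tgfb2 was at 99.9, 177, 128 and 162 CPM. Its log2 fold change against sham was 2.02 (SE 0.17, adjusted p = 0.000174 in the quasi-likelihood test of edgeR), and it ranked 4 of all tested genes by p value. Tgfb3 was at 161, 209, 284 and 310 CPM, and Ltbp2 at 28.3, 55, 24.9 and 45.2. The log2 fold changes of these were 1.36 (adjusted p = 0.00352) and 1.86 (adjusted p = 0.0083, both by the same test). Ltbp3 had one of 0.78 (adjusted p = 0.00469, same test).

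Tgfbr1 was at 78.9, 61.4, 79.7 and 70.3 CPM in these samples, all above the sham range, with a log2 fold change of 0.44 (adjusted p = 0.0279 in the quasi-likelihood test of edgeR). This call was lost without any 1 of #04, #11, #16, #22 and #23, where the adjusted p value was 0.0512 to 0.0735. Tgfbi was at 304, 269, 244 and 257 CPM, and its log2 fold change of -0.60 missed the threshold (adjusted p = 0.0531, same test). Over the same samples, its call in this test thus differed with the filter. The call also differed with the test, since Tgfbi passed by DESeq2 (adjusted p = 0.00822) and by the exact test of edgeR (adjusted p = 0.0319). In the quasi-likelihood test it passed without the sham sample #16 (adjusted p = 0.0395), with a log2 fold change of -0.67.

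**Figure D3:**
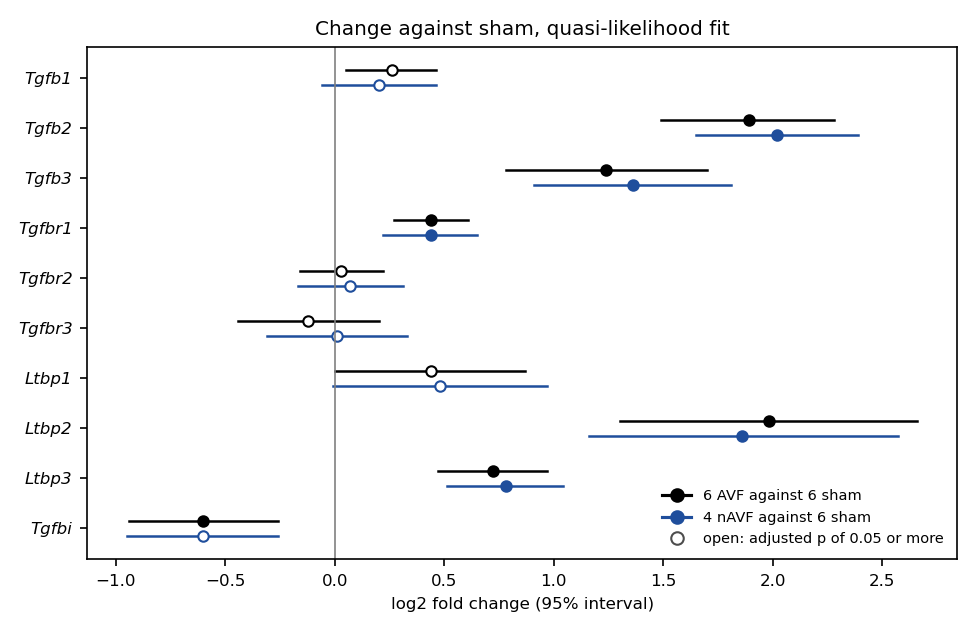
Log2 fold change against sham (x axis) for each member (y axis), with bars for the 95% interval, black for 6 AVF against 6 sham and blue for 4 nAVF against 6 sham, and open circles where the adjusted p value was 0.05 or more. Tgfb2 reached 1.89 and 2.02, Ltbp2 1.98 and 1.86, while Tgfbr2 stayed at 0.03 and 0.07.

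Between the OUT and nAVF samples, 0 of the 10 members passed the test (quasi-likelihood test of edgeR), against 1.59% of 22123 tested genes. Since the study formed these subgroups from the same expression data, p values between them do not allow for that choice. At an unadjusted p value under 0.05, 1 member (Tgfbr3) was called, against 5.17% of genes, and DESeq2 and the exact test of edgeR also called 0 members after adjustment. In #05 and #09, Tgfb2 was at 115 and 86.5 CPM, Tgfb3 at 198 and 150, and Ltbp2 at 61.7 and 32.1. Each of these ranges overlapped that of the nAVF samples. OUT minus nAVF, the log2 difference was -0.49 for Tgfb2 (95% interval -1.07 to 0.08), -0.46 for Tgfb3 (-1.08 to 0.15) and 0.29 for Ltbp2 (-0.54 to 1.11). With 2 OUT samples these intervals were wide and included 0. Tgfbr3, at 157 and 139 CPM in OUT and 174 to 264 in nAVF, had a log2 fold change of -0.47 (95% interval -0.94 to -0.01, adjusted p = 0.937 in the quasi-likelihood test of edgeR).

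The sexes were compared within each operation, with 3 mice a side. In AVF, 0 members passed (quasi-likelihood test of edgeR, background 0.0316%), and DESeq2 and the exact test of edgeR also called 0. At an unadjusted p value under 0.05, Ltbp3 and Tgfbi were called, against 3.30% of genes, with log2 fold changes of females against males of -0.34 and -0.40. Tgfb3 was at 284, 150 and 310 CPM in AVF females and 161, 198 and 209 in AVF males, which overlapped.

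In sham, 0 members passed as well (quasi-likelihood test of edgeR, background 0.0818%). Ltbp1 and Ltbp3 were called at an unadjusted p value under 0.05, against 9.23% of genes. Ltbp1 was at 88.4, 68.8 and 74.8 CPM in sham females and 99.1, 160 and 151 in sham males. Its log2 fold change of females against males was -0.82 (95% interval -1.25 to -0.39, adjusted p = 0.318 in the quasi-likelihood test of edgeR). By other tests this change passed, with an adjusted p value of 0.0226 in DESeq2 and 0.0434 in the exact test of edgeR, and without the male sample #16 it also passed (adjusted p = 0.0485, quasi-likelihood test).

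In AVF, Ltbp1 was at 139, 137 and 135 CPM in females and 147, 132 and 180 in males. The AVF effect of females minus that of males was 0.62 on the log2 scale for Ltbp1 (95% interval 0.08 to 1.17, adjusted p = 0.96, interaction term in the quasi-likelihood fit of edgeR). It was the 1 member with an unadjusted p value under 0.05 there, against 4.82% of genes, and 0 members passed, as did 0.00% of all genes. DESeq2 also called 0 members. A sex difference in the response of the members was thus not detected with these group sizes.

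**Figure D4:**
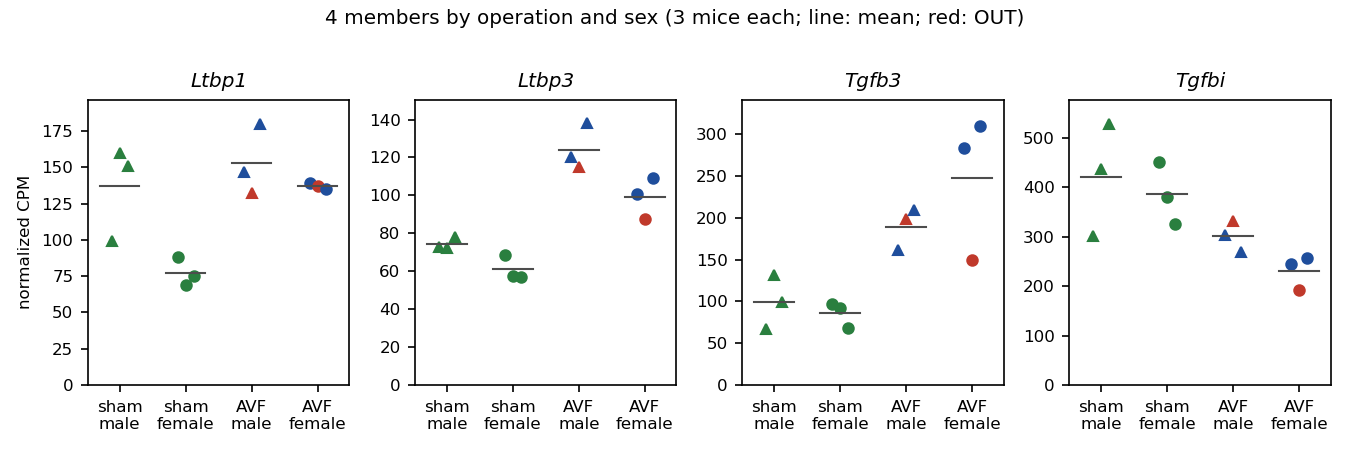
Normalized CPM (y axis) of Ltbp1, Ltbp3, Tgfb3 and Tgfbi by operation and sex (x axis, 3 mice each), with a line for each mean, triangles for males, circles for females, and green, blue and red for sham, nAVF and OUT samples. Ltbp1 covered 68.8 to 88.4 in sham females and 99.1 to 160 in sham males, and 135 to 139 and 132 to 180 in the AVF groups.

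To place the members in their pathway, 5 further lists of its genes were examined in AVF against sham. The members and these lists were chosen with earlier results of these data known, so shares above the background are descriptions only. Of the genes for latency and activation, 9 of 17 tested were higher and 1 lower, against 8.63% and 5.13% of all tested genes, with a median log2 fold change of 0.53 beside -0.01 over all genes. Fbn1 and Fbn2 encode the fibrillins to which latent binding proteins attach. Fbn1 was at 194 to 518 CPM in sham and 866 to 1490 in AVF (log2 fold change 1.74, adjusted p = 0.000988 in the quasi-likelihood test of edgeR), and Fbn2 rose by 2.59 on the log2 scale (adjusted p = 0.000392). Mmp14, a membrane protease, had one of 1.33 and Itgb5, an integrin subunit that binds the latent complex, one of 0.76 (adjusted p = 0.00125 and 0.00294, same test). Mmp9, a gelatinase, fell by 0.99 on the log2 scale (adjusted p = 0.0226, same test), which did not pass without the OUT samples (adjusted p = 0.0765).

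Among coreceptors and Smads, 1 of 13 tested genes was higher and 0 lower, a share near the 8.63% of all tested genes called higher, with a median log2 fold change of 0.07. That gene was Eng, the endothelial coreceptor endoglin, at 109 to 154 CPM in sham and 150 to 235 in AVF (log2 fold change 0.47, adjusted p = 0.0239 in the quasi-likelihood test of edgeR). Without the sham sample #16 Eng missed the threshold (adjusted p = 0.0521). Smad5, the gene of this list with the highest mean CPM that did not pass, was at 0.14 on the log2 scale of the fold change (adjusted p = 0.23, same test).

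Of the inhibitors and ligand-binding proteoglycans, 12 of 20 were higher and 0 lower, against 8.63% and 5.13% of all tested genes, with a median log2 fold change of 0.52. Pmepa1 and Skil, both induced by Smad signalling and restraining it, had log2 fold changes of 0.60 and 0.74 (adjusted p = 0.00066 and 0.00198 in the quasi-likelihood test of edgeR). Pmepa1 was at 103 to 121 CPM in sham and 143 to 189 in AVF. The small proteoglycans biglycan (Bgn) and asporin (Aspn) had log2 fold changes of 1.24 and 0.85 (adjusted p = 0.002 and 0.00176, same test). Decorin (Dcn), a further small proteoglycan, had one of 0.12 (adjusted p = 0.665, same test), with all 6 AVF samples inside the sham range of 1990 to 3900 CPM.

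Of the genes known as targets of TGF-beta, 16 of 29 tested were higher, 14 of them at least 2-fold, against 8.63% and 3.37% of all tested genes, and 0 were lower, with a median log2 fold change of 1.02. Cthrc1, a secreted protein of activated fibroblasts, was at 8.78 to 18.9 CPM in sham and 58.8 to 117 in AVF (log2 fold change 2.63, adjusted p = 6.45e-05 in the quasi-likelihood test of edgeR). The collagen and elastin crosslinking enzyme Lox had a log2 fold change of 2.17 and the matricellular protein Postn one of 1.60 (both adjusted p = 0.00031, same test). Elastin itself (Eln) had one of 3.57. The contractile actin Acta2, the target with the highest mean CPM that did not pass, was at 923 to 1720 CPM in sham and 878 to 2070 in AVF (log2 fold change 0.19, adjusted p = 0.569, same test). Tgfbi, though named for its induction by TGF-beta, thus differed in direction from each target that passed. Col1a1, Col1a2, Acta2, Tagln and Cnn1 were counted both as targets here and as markers of fibroblasts or smooth muscle above.

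Of the bone morphogenetic protein (BMP) and activin branch, 5 of 23 tested genes were higher and 1 lower, against 8.63% and 5.13% of all tested genes, with a median log2 fold change of 0.32. The secreted glycoprotein Fstl1 had a log2 fold change of 1.66 and the activin-binding Fstl3 one of 0.81 (adjusted p = 0.000308 and 0.0152 in the quasi-likelihood test of edgeR). The ligand Gdf6 was at 0.194 to 0.523 CPM in sham and 1.95 to 15.7 in AVF (log2 fold change 4.21, adjusted p = 0.000332, same test), so its sham level was near the 3 counts taken as detected. The ligand Bmp2 rose by 1.62 on the log2 scale (adjusted p = 0.00983, same test), and by 1.01 without the OUT samples, in which it stood at 23.9 and 46.8 CPM against 9.6 to 17.1 in nAVF. The BMP antagonist Nog fell by 1.14 on the log2 scale (adjusted p = 0.0256, same test). That call was lost without #05 (adjusted p = 0.0551), without #06 (adjusted p = 0.0539) and without both OUT samples (adjusted p = 0.0828). For the receptor Bmpr2 the log2 fold change was 0.06 (adjusted p = 0.75, same test). In nAVF against sham, 9 of 18 genes for latency and activation and 1 of 14 coreceptors and Smads were higher. So were 9 of 20 inhibitors, 15 of 30 targets and 5 of 26 genes of the BMP and activin branch. In each list 0 were lower, against 3.23% of 22059 tested genes called higher and 1.13% called lower.

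**Figure D5:**
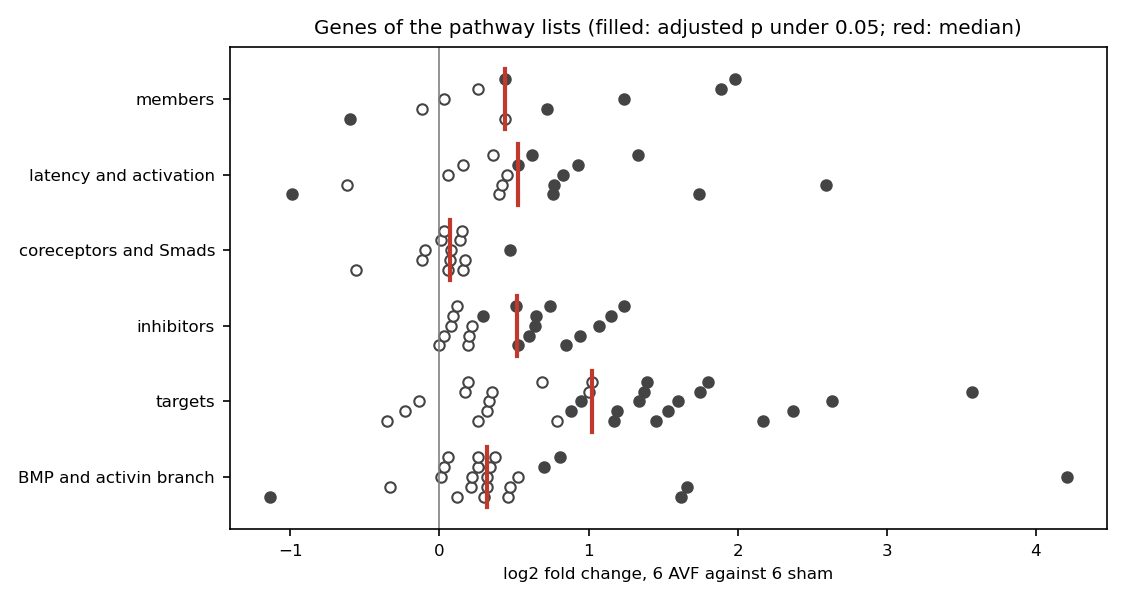
Log2 fold change of AVF against sham (x axis) for each tested gene of the members and of 5 further lists (y axis), with filled points for an adjusted p value under 0.05 and a red line for the median of each list. Medians were 0.44 for the members, 0.07 for coreceptors and Smads and 1.02 for targets.

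The genes whose profiles lay nearest to the ligands and Tgfbi were sought among 13846 protein-coding genes, by the root mean square difference of log2 CPM over the 12 libraries, each gene centred on its own mean. For Tgfb2 these were Loxl1, Fstl1 and Mfap4, at differences of 0.17, 0.21 and 0.21, beside a median of 1.01 over all genes searched. For Tgfb3 they were Arhgef7, Col8a2 and Gtse1, at 0.22, 0.22 and 0.23, beside a median of 0.76. The nearest to Tgfb1 were Ranbp1, Golga7 and Tmem258, at 0.09, 0.10 and 0.10, beside a median of 0.32 over all genes searched. Those to Tgfbi were Icosl, Usp11 and Clec3b, at 0.15, 0.18 and 0.19, beside a median of 0.46. Tgfb1 itself varied by only 0.19 around its mean and Tgfbi by 0.40, against 0.96 for Tgfb2 and 0.71 for Tgfb3. The libraries share depth and tissue mix, so these values are descriptions.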

How the data were processed

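RNA of the IVC of 12 mice was sequenced by the authors as stranded poly(A) libraries in paired ends. Trimming was done with PRINSEQ and Trimmomatic 0.39 and alignment to GRCm39 with STAR 2.7.7a and an Ensembl annotation. The authors deposited the expected counts of RSEM 1.3.3 for each gene, not normalized. Of 55414 genes, 54749 had a name in GENCODE M39, which is on the same build but of a later release than the authors used. Of the values of a library, 5.72% to 7.75% were not whole, since RSEM shares reads between similar genes.

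Operation and sex came from the sample labels, and the nAVF and OUT subgroups from the study's own account. Counts were rounded, scaled with TMM and tested with the quasi-likelihood test of edgeR 4.0.16 (R 4.3.3, limma 3.58.1), with Benjamini-Hochberg adjustment over all tested genes. The filters of the study were kept, over 1 CPM in 2 or more samples (AVF against sham) or over 12 counts in total (all others). Levels per kilobase used the exon length of each gene summed over all its annotated transcripts, with shared bases counted once. Alternatives were size factors of the relative log expression (RLE) method, DESeq2 1.42.0, the exact test of edgeR, no filter, no ribosomal RNA genes, sex as a covariate, the replicate number as a block, leaving out the OUT samples, and leaving out each library in turn. The fits were tested on simulated data.

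The members and lists were chosen with earlier results of these data known. Named from each of the 5 other lists were up to 4 genes in either direction that passed with the smallest adjusted p values, and the gene with the highest mean CPM that did not pass. Limits in counts cover counting error only, and each mouse gave 1 library, so the tests set differences between groups against the spread between mice.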

Additional observations from a re-analysis of the deposited data

Results flagged for a closer look

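A sample stood far from the other 5 of its group, by Dixon's test of the gap over the range, in 8 of 68 groups searched over the members and the other named genes. Chance gives this in about 1 of 20 groups. Among the members, these were Tgfbr1 in the sham sample #23, at 46.1 CPM below 52.5 to 55.6 in the others, Ltbp1 in the AVF sample #06, at 180 CPM above 132 to 147, and Ltbp2 in the sham sample #16, at 20.5 CPM above 6.06 to 11. Sample #16 was also low in Pmepa1, at 103 CPM against 115 to 121. In the other pathway genes, Mmp9 was at 12.2 CPM in the AVF sample #04 against 3.78 to 6.62, Lox at 1970 in the AVF sample #11 against 691 to 1080, Aspn at 246 in the sham sample #19 against 155 to 177, and Nog at 10.4 in the sham sample #23 against 3.15 to 5.07.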

How the results depend on the processing

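In AVF against sham, the 6 members that passed did so under every alternative run, and with each sample left out 5 to 6 members were higher, Tgfb1 being the addition. In nAVF against sham, 1 member (Tgfbi) was lower by DESeq2 (adjusted p = 0.00822) and by the exact test of edgeR (adjusted p = 0.0319), the exact test lost Tgfbr1 (adjusted p = 0.0863), and leaving out a sample gave 0 to 1 lower and 4 to 5 higher. In females against males of the sham group, 1 member (Ltbp1) was lower by DESeq2 and by the exact test, and 0 to 1 with a sample left out. Signs turned only in values that had not passed. In the interaction, Tgfb2 (-0.03 on the log2 scale) was 0.01 with RLE factors and with DESeq2, and Tgfbr3 (-0.02) was 0.03 with both and 0.01 without ribosomal RNA genes, and Tgfbr3 in AVF against sham was 0.03 without the OUT samples. With a sample left out, Tgfbr2 in AVF against sham ran from -0.01 to 0.07 and Tgfbr3 in nAVF against sham from -0.15 to 0.1. In OUT against nAVF, the ranges were -0.11 to 0.01 for Tgfbr1, -0.26 to 0.68 for Ltbp2 and -0.47 to 0.31 for Tgfbi. In females against males of the AVF group they were -0.12 to 0.11 for Tgfb1, -0.31 to 0.22 for Tgfb2, -0.01 to 0.17 for Tgfbr1, -0.12 to 0.02 for Tgfbr2 and -0.34 to 0.07 for Tgfbr3, and in the sham group -0.24 to 0.05 for Tgfb2, -0.42 to 0.03 for Tgfb3, -0.69 to 0.19 for Ltbp2 and -0.3 to 0.07 for Tgfbi. In the interaction they were -0.25 to 0.02 for Tgfb1, -0.28 to 0.25 for Tgfb2, -0.17 to 0.28 for Tgfbr3, -0.68 to 0.16 for Ltbp2 and -0.17 to 0.04 for Ltbp3. The cause of these changes was not tested. Over all genes, the 2190 calls of AVF against sham became 3402 with DESeq2, 1230 without the OUT samples and 1330 to 2546 with a sample left out, and the 963 of nAVF against sham became 2380 with DESeq2 and 384 to 1123. OUT against nAVF had 352 calls and 535 by the exact test, females against males of the sham group 18, and 250 with DESeq2 and 245 by the exact test, and those of the AVF group 7, and 62 and 22. The replicate number was not taken as a pairing, since samples of the same number and sex correlated by over 0.1 in 3 of 6 pairs (-0.218 to 0.283), and 2 of 6 AVF samples correlated best with their own number. With the replicate block, 1980 genes were called in AVF against sham, with the same 6 members, and 695 in nAVF against sham, without Tgfbr1 (adjusted p = 0.112). In the sexes it gave 14 calls in AVF and 46 in sham, with 0 members in each. No block was run for OUT against nAVF, where no pair shares number and sex, or for the interaction. Depth did not limit the members, all above the 3 counts taken as detected, but 2 or 3 samples a group limit the comparisons of subgroups and sexes.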
